A study of Mus musculus with 12 samples.

Results

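The tripartite motif (Trim) family was examined in CD11c+ cells, a gate that takes dendritic cells, of mice with and without a deletion of the TGF-beta receptor gene Tgfbr2. Its members were taken by name, as every probe set that the platform annotation gave exactly 1 gene symbol made of Trim and a number. This gave 44 probe sets for 44 genes, of 23332 probe sets on the array. A member was marked dim where its mean was below 6.4 on the log2 scale in all 4 groups, which held for 13 members and left 31. A further 7 probe sets carried several symbols of which 1 was a Trim gene, and these were not members.

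Gene expression in C57BL/6 mice was read from 12 arrays of the Affymetrix Mouse Exon 1.0 ST type, with 3 arrays for each of 4 groups. The groups were spleen Cre+ and spleen Cre-, which were CD11c+ cells from a magnetic sort, and MLN Cre+ and MLN Cre-, which were CD11c+CD103+ cells that a flow sort took from mesenteric lymph nodes (MLN) pooled from 4 mice per sample. Per the labels, Cre+ mice had the TGFBR2 deletion, Cre- mice were its controls, and the cells had no treatment. The sources used here did not give the promoter that drives Cre, the deleted exons, the ages of the mice or the number of mice behind a spleen sample. For MLN Cre+, 1 label on cell type spoke of Cre- mice, against title, source and genotype labels that said Cre+ and were followed.

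Most Trim proteins carry a RING domain, 1 or more B-box zinc fingers and a coiled coil, and most act as ubiquitin ligases through the RING. The region after the coiled coil sets what a member binds. Members with a B30.2/SPRY region include sensors and regulators of antiviral signalling that interferon induces in dendritic cells and macrophages, and members with a PHD finger and bromodomain read chromatin. Among these, Trim33 binds the SMAD proteins that carry the TGF-beta signal.

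The interferon-stimulated response element is the promoter motif through which interferon induces genes, and its core was searched on both strands as GAAANNGAAA or TTTCNNTTTC. Of the 34 members with a promoter window of 250 bases before to 50 bases after a transcript start (RefSeq, GRCm38.p6), 5 held the core, a share of 14.7%. Of all 27025 genes with a window, 1079 held it, a share of 3.99%. The 30 bases around the core are shown for the 4 of these members that were not dim. Trim30a and Trim34a are among the 6 members of largest MLN difference, and Trim21 and Trim26 have separated groups there, as do 17.7% of all probe sets. None of the 4 reached an adjusted p under 0.05 in MLN (limma), and a link between the core and genotype was not tested. Capitals mark the core, or overlapping cores, and each sequence reads 5′ to 3′ on the gene's own strand.
Trim21: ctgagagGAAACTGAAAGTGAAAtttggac
Trim34a: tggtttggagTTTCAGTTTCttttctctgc
Trim30a: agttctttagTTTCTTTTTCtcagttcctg
Trim26: cttccgaTTTCACTTTCCTTTTCtcgggcc
The stretch of Trim21 is chr7:102565447-102565476 on the minus strand, that of Trim34a chr7:104244457-104244486 on the plus strand, that of Trim30a chr7:104465210-104465239 on the minus strand and that of Trim26 chr17:36836979-36837008 on the plus strand. In Trim21 the capitals run from base 14 to base 29 counted from the transcript start, in Trim34a from base 11 to base 20, in Trim30a from base -36 to base -27 and in Trim26 from base -160 to base -145. The fifth member with the core was the dim Trim2. Trim30b, the member with the largest genotype difference, had a window without these letters. Another window of Trim30a also held the core, in the stretch chr7:104446104-104446133 on the minus strand. A match is a run of letters and was not tested as a binding site.

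Values set across tissues depend on scaling, and the arrays of the tissues differed in median and in spread. Array medians were 6.79 to 6.89 in MLN Cre+, 6.74 to 6.81 in MLN Cre-, and 7.03 to 7.08 in spleen. The SD of the values on an array was 1.803 to 1.91 in MLN and 2.371 to 2.423 in spleen. Within groups, Pearson's r between arrays was 0.982 to 0.991, taken over probe sets that are no independent replicates. The level of Tgfbr2 was 10.70 ± 0.0332 in spleen Cre+, against 10.94 ± 0.0211 in spleen Cre-, and 9.46 ± 0.0833 in MLN Cre+ and 9.58 ± 0.0797 in MLN Cre- (SD, n = 3 each). Neither difference passed the test (limma, adjusted p = 0.138 and 0.524). The deleted exons were not given and no exon-level value was read, so these values do not show how far the gene was deleted. The Y-linked Eif2s3y was low in spleen Cre+, at 3.17 ± 0.143, against 9.91 ± 0.145 in spleen Cre- (SD, n = 3 each), so in spleen the effect of genotype and that of sex cannot be told apart. For MLN, Eif2s3y averaged 7.60 with an SD of 0.587 in Cre+ samples, while the controls averaged 7.42 with an SD of 0.999. Both means lay between the spleen levels, and the arrays spread more widely than in spleen. The sexes behind the MLN pools were not tested. No Trim member lies on X or Y, but an effect of sex on members elsewhere in the genome was not tested. The dendritic cell genes Flt3 and Zbtb46 were above the dim limit in all groups, and Itgae, which encodes CD103, measured 7.755 in MLN Cre+ and 7.998 in MLN Cre-. Against spleen, as deposited, Itgae passed the test as higher in MLN in Cre- mice alone. Clec9a and Xcr1, also among the 4 measured CD103+ dendritic cell genes, passed it as lower in MLN in both genotypes. Tests were limma fits to all 12 arrays, p-values were adjusted by Benjamini-Hochberg across the 23332 probe sets, and a member was called at an adjusted p under 0.05.

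Differences between Cre+ and Cre- cells were small across the family. In spleen 0 of 44 members were called, against 2.17% of all probe sets, and in MLN 0 of 44 against 0.0857%. The median difference of the members was -0.02 log2 units in spleen, against 0.01 over all probe sets, and 0.14 in MLN, against 0.08 over all probe sets. The 95% interval lay within a 2-fold change either way for 44 of 44 members in spleen, as it did for 89.0% of all probe sets. In MLN this held for 43 of 44 members and for 91.3% of all probe sets, the exception being Trim30b. At an unadjusted p under 0.05, limma gave 7 members in spleen (15.9%, against 16.2% of all probe sets) and 11 in MLN (25%, against 11.9%). The 11 in MLN were all higher in Cre+, a direction taken by 10.3% of all probe sets at that p.

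**Figure D1:**
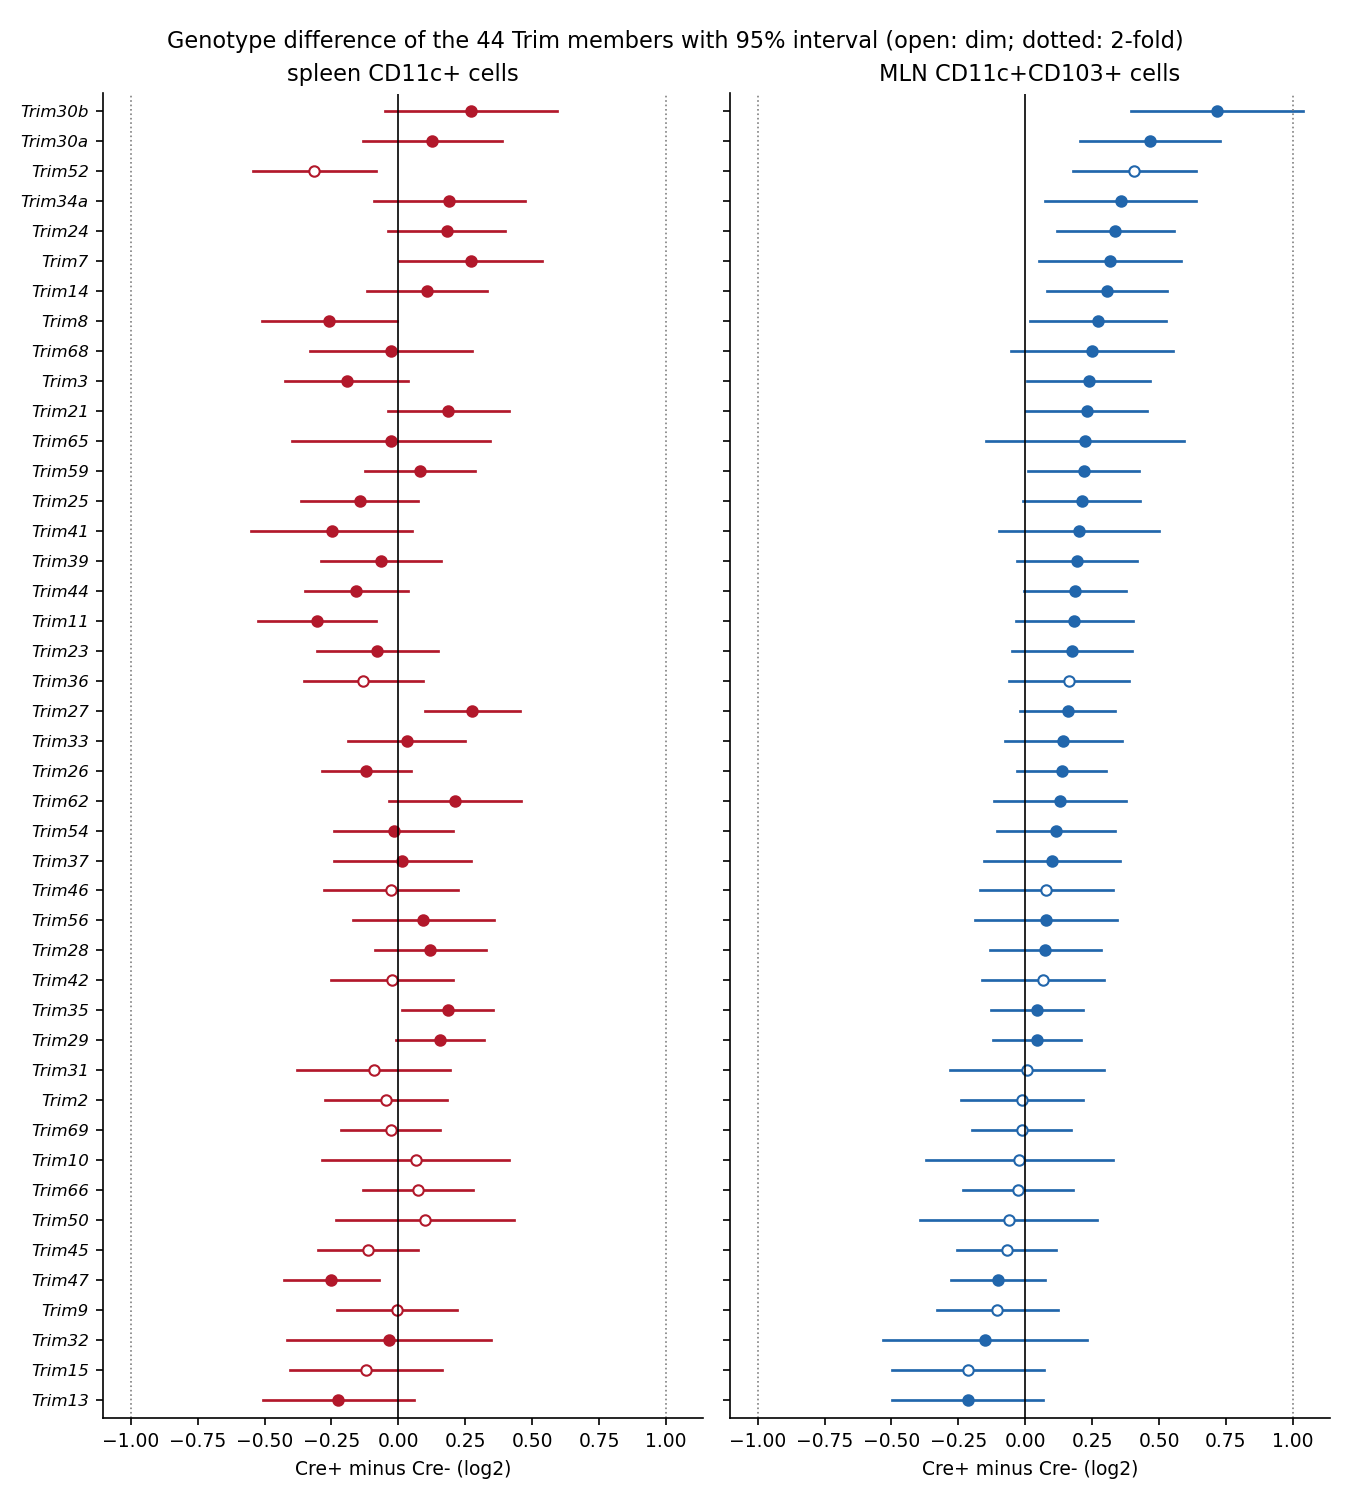
Cre+ minus Cre- difference of each of the 44 Trim members with its 95% interval from limma, in log2 units, in spleen (left) and MLN (right), ordered by the MLN difference. Open points are dim members and dotted lines mark a 2-fold change. Trim30b stands at the top with 0.72 in MLN and 0.27 in spleen, and in spleen every interval stays between the dotted lines.

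Trim30b, a close relative of the interferon-inducible Trim30a, was the 1 member called in a genotype comparison. It rose in the mean of the spleen and MLN differences, by 0.49 (SE 0.103, adjusted p = 0.049, limma), in a comparison that called 1.26% of all probe sets. In MLN it measured 7.53, 7.44 and 7.78 in Cre+ and 6.72, 6.86 and 7.03 in Cre-. The MLN groups did not overlap, and the lowest Cre+ array was above the highest Cre- array. The MLN difference was 0.72 (SE 0.145, 95% interval 0.39 to 1.04, 1.64-fold), and alone it was not called (adjusted p = 0.128). In spleen it measured 9.17, 8.95 and 9.43 in Cre+ and 9.09, 8.77 and 8.87 in Cre-. The spleen groups overlapped, with a difference of 0.27 (SE 0.145, adjusted p = 0.395). This call on the mean held in 7 of 20 alternatives. Among others, it was lost in 11 of the 12 fits that left out 1 array and after quantile normalization within each tissue (adjusted p = 0.0512), with adjusted p over all 20 alternatives between 0.0143 and 0.133 and the difference between 0.39 and 0.55.

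Trim30a and Trim34a, the nearest members to Trim30b on chromosome 7, had positive differences in MLN, and neither was called. A positive MLN difference was common, at 33 of 44 members and 66.7% of all probe sets. The protein-coding genes listed between Trim34a and Trim30b are Trim5, Trim12a, Trim34b, Trim12c and Gm38525, and the 1 between Trim30b and Trim30a is Trim30c. None of these is a member. Trim30a, which in mouse limits Toll-like receptor signalling through the adaptors Tab2 and Tab3, measured 10.92, 10.75 and 11.06 in MLN Cre+ and 10.65, 10.28 and 10.40 in MLN Cre-. These groups did not overlap, and the difference was 0.47 (SE 0.118, adjusted p = 0.229, limma). Trim34a, whose human counterpart is interferon-induced, measured 8.63, 8.77 and 8.93 in MLN Cre+ and 8.28, 8.33 and 8.64 in MLN Cre-. Here the highest Cre- array lay above the lowest Cre+ array, and the difference was 0.36 (SE 0.127, adjusted p = 0.37). In spleen the differences of Trim30a and Trim34a were 0.13 and 0.19, with overlapping groups. Genes of this cluster are near copies of each other, and whether their probes read 1 gene each was not tested.

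**Figure D2:**
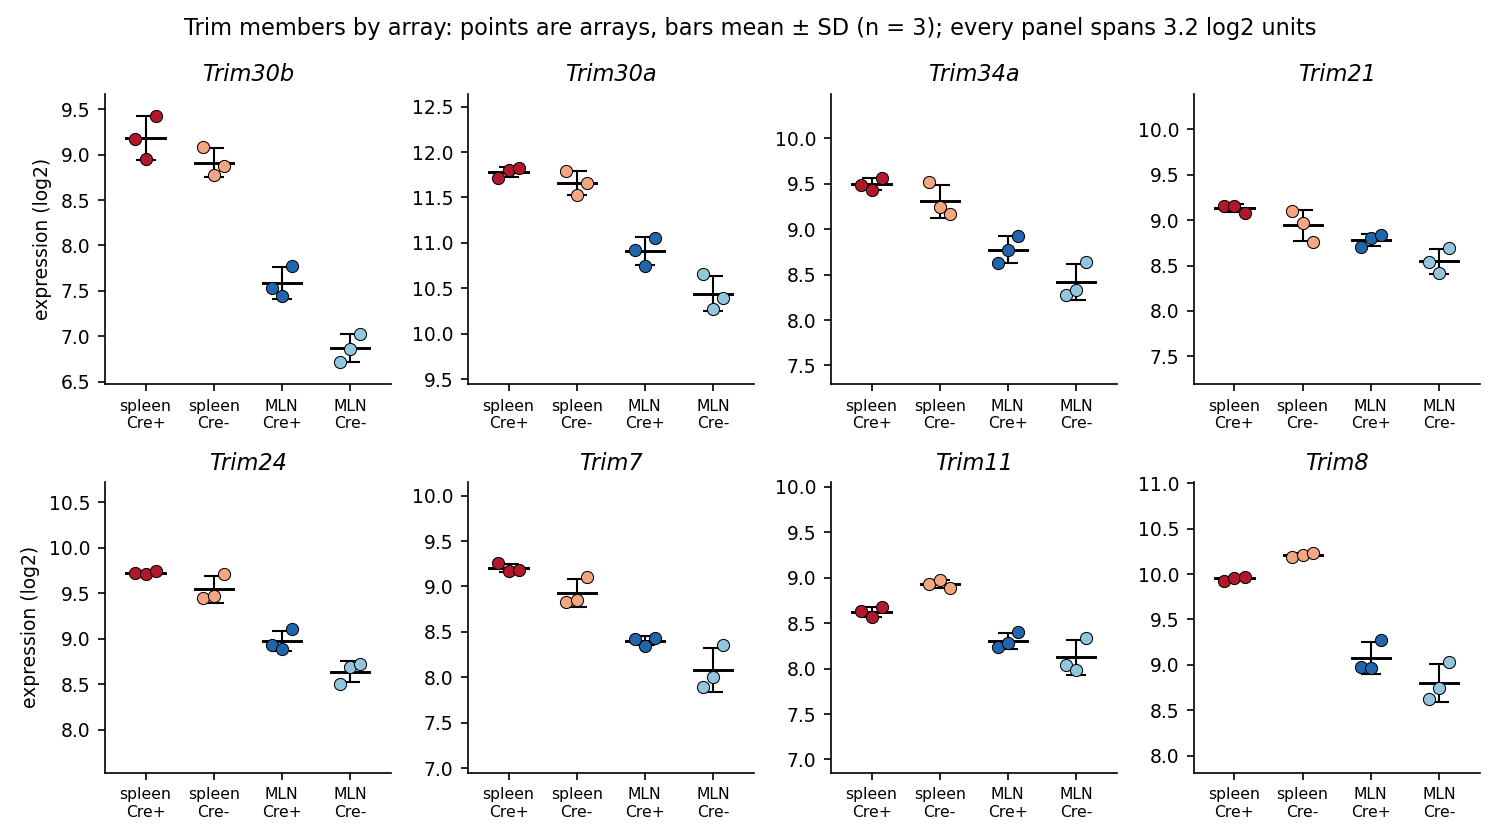
Log2 values of 8 Trim members on each of the 12 arrays (points), with the mean and SD of each group of 3, for spleen Cre+, spleen Cre-, MLN Cre+ and MLN Cre-. All panels span the same number of log2 units. The MLN Cre+ points of Trim30b, Trim30a, Trim21 and Trim24 lie above the MLN Cre- points, and the spleen Cre+ points of Trim11 and Trim8 lie below the spleen Cre- points.

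The members with roles in nucleic acid sensing and antiviral signalling numbered 14, and 13 of them had a positive MLN difference, with a median of 0.22. After quantile normalization of the 12 arrays to 1 distribution, 10 were positive and the median was 0.06, so the shift depended on scaling. Over all 44 members the count of positive MLN differences was 33 as deposited and 25 after quantile normalization, against 66.7% and 46.7% of all probe sets. Trim21, a cytosolic receptor for antibody-coated virus, measured 8.71, 8.80 and 8.83 in MLN Cre+ and 8.54, 8.42 and 8.69 in MLN Cre-. Its groups did not overlap, and the difference was 0.23 (SE 0.103, adjusted p = 0.417, limma). Trim14, an adaptor of the mitochondrial antiviral protein Mavs, measured 8.81, 8.81 and 9.10 in MLN Cre+ and 8.502, 8.543 and 8.768 in MLN Cre-. Its Cre+ arrays were all above its Cre- arrays in both tissues, which held for 1 of 44 members (2.27%) and for 2.49% of all probe sets. Its MLN difference was 0.30 (SE 0.102, adjusted p = 0.345) and its spleen difference 0.11.

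Other ligases of the sensing pathways were not called either. Trim25, which ubiquitinates the RNA sensor encoded by Ddx58, had differences of 0.21 in MLN (adjusted p = 0.433, limma) and -0.14 in spleen (adjusted p = 0.525). Trim65, which acts on the RNA sensor encoded by Ifih1, had 0.22 in MLN and -0.03 in spleen, and Trim56, a regulator of cytosolic DNA sensing, had 0.08 in MLN and 0.09 in spleen. Trim13, an endoplasmic reticulum ligase, was the 1 sensing member with a negative MLN difference, of -0.21 (adjusted p = 0.507), and its spleen difference was -0.23. Trim27, a regulator of NF-kappaB and interferon signalling, measured 10.19, 10.27 and 10.24 in spleen Cre+ and 9.976, 9.905 and 9.9996 in spleen Cre-. Its spleen groups did not overlap, and the difference of 0.28 (SE 0.0802) had the smallest adjusted p of any member in spleen, 0.113.

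The 4 members of the TIF1 group, which bind chromatin, were not called in either tissue. Trim33 is the member closest to the deleted pathway, as it binds phosphorylated SMAD2 and SMAD3 and can ubiquitinate SMAD4. It measured 8.87, 8.84 and 9.16 in MLN Cre+ and 8.75, 8.78 and 8.91 in MLN Cre-. It measured 9.86, 9.94 and 10.01 in spleen Cre+ and 9.89, 9.84 and 9.97 in spleen Cre-. The groups overlapped in both tissues, and the differences were 0.14 in MLN (95% interval -0.08 to 0.36) and 0.03 in spleen (-0.19 to 0.25), with adjusted p of 0.559 and 0.924 in limma. Both turned negative after quantile normalization, at -0.017 in MLN and -0.028 in spleen. Trim24, a cofactor of nuclear receptors, measured 8.93, 8.89 and 9.10 in MLN Cre+ and 8.51, 8.69 and 8.72 in MLN Cre-. These groups did not overlap, and the difference was 0.34 (SE 0.099, adjusted p = 0.295). Its spleen difference was 0.18 (adjusted p = 0.408). Trim28, the corepressor of KRAB zinc finger proteins, had 0.08 in MLN and 0.12 in spleen, and the MLN value turned to -0.078 after quantile normalization. The dim Trim66 had -0.03 in MLN and 0.07 in spleen.

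In spleen the larger differences were of mixed sign. Trim11, a ligase that can target the peptide humanin, measured 8.64, 8.56 and 8.68 in Cre+ and 8.93, 8.97 and 8.88 in Cre-. The groups did not overlap, and the difference was -0.30 (SE 0.0994, adjusted p = 0.156, limma). Trim8, a regulator of cytokine signalling, measured 9.93, 9.96 and 9.97 in spleen Cre+ and 10.19, 10.21 and 10.23 in spleen Cre-. The arrays within each group lay close together, and the difference was -0.26 (SE 0.115, adjusted p = 0.3). Trim47 had -0.25 (SE 0.0801, adjusted p = 0.146), with all Cre+ arrays below all Cre- arrays. Trim7, which binds glycogenin, measured 9.26, 9.17 and 9.18 in spleen Cre+ and 8.83, 8.85 and 9.11 in spleen Cre-. Its groups did not overlap, and the difference was 0.27 (SE 0.12, adjusted p = 0.301). In MLN, where its groups overlapped, the difference of Trim7 was 0.32 (adjusted p = 0.381). In spleen 15 of 44 members had groups that did not overlap, 6 higher and 9 lower in Cre+, against 21.8% of all probe sets, 12.4% higher and 9.37% lower. In MLN 13 of 44 members had such groups, 12 higher and Trim15 lower, against 17.7% of all probe sets, 13.4% higher and 4.29% lower.

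The 3 members with NHL repeats and the 4 with a COS box or known from microtubules and muscle were not called in either tissue. Trim3, an NHL member known from neurons, measured 8.23, 8.15 and 8.44 in MLN Cre+ and 7.92, 7.96 and 8.22 in MLN Cre-. It measured 8.75, 8.68 and 8.64 in spleen Cre+ and 8.88, 8.95 and 8.82 in spleen Cre-. The MLN groups overlapped, with a difference of 0.24, while all spleen Cre+ arrays were below all spleen Cre- arrays, with a difference of -0.19 (adjusted p = 0.4, limma). Trim32, whose human counterpart is mutated in a limb-girdle muscular dystrophy, had -0.15 in MLN and -0.03 in spleen. The 4 COS box or muscle members lay between -0.10 and 0.16 in MLN and between -0.13 and -0.005 in spleen, and 3 of them were dim. The 19 members in none of these groups had a median of 0.10 in MLN, 13 of them positive, and of -0.03 in spleen, 8 of them positive.

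The difference between the tissues in the effect of genotype was called for 0 of 44 members, against 0.163% of all probe sets. It includes the spleen difference, in which genotype and sex cannot be told apart. At an unadjusted p under 0.05 limma gave 8 members, all with a more positive difference in MLN (18.2%, against 12.2% of all probe sets, 8.72% in that direction). Trim52, a dim member that lacks the B30.2/SPRY region, measured 6.05, 5.94 and 6.22 in MLN Cre+ and 5.75, 5.57 and 5.67 in MLN Cre-. It measured 4.92, 4.70 and 5.01 in spleen Cre+ and 5.21, 5.24 and 5.13 in spleen Cre-. The groups did not overlap in either tissue, with Cre+ higher in MLN and lower in spleen. The MLN minus spleen difference of the genotype effect was 0.72 (SE 0.147, adjusted p = 0.0969), at levels below the dim limit. Trim26, a regulator of interferon-beta induction, had the same arrangement of its arrays with 0.26 (adjusted p = 0.37). These 2 members with opposite non-overlapping groups compare with 1.29% of all probe sets. The next values were 0.53 (SE 0.162, adjusted p = 0.236) for Trim8, 0.49 (SE 0.141, adjusted p = 0.21) for Trim11, 0.45 for Trim41, 0.44 for Trim30b, 0.43 for Trim3 and 0.35 for Trim25.

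Arrays of the same group differed within MLN. The array MLN Cre+ 3 held the highest of the 6 MLN values for 24 of 44 members, and for 39.7% of all probe sets. The array MLN Cre- 1 held the lowest value for 17 of 44 members, and for 31.8% of all probe sets. MLN Cre+ 3 also had the highest array median of the 6, at 6.89. Among the Cre- arrays, MLN Cre- 3 had the highest median, at 6.81. It held the lowest value for 2 of 44 members, and for 10.8% of all probe sets. The highest median thus fell on number 3 in both genotypes. Whether these arrays differ in cells or in the handling of RNA was not tested. Without MLN Cre+ 3 the mean difference of Trim30b over both tissues was 0.44, and without MLN Cre- 1 it was 0.46, and neither was called.

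**Figure D3:**
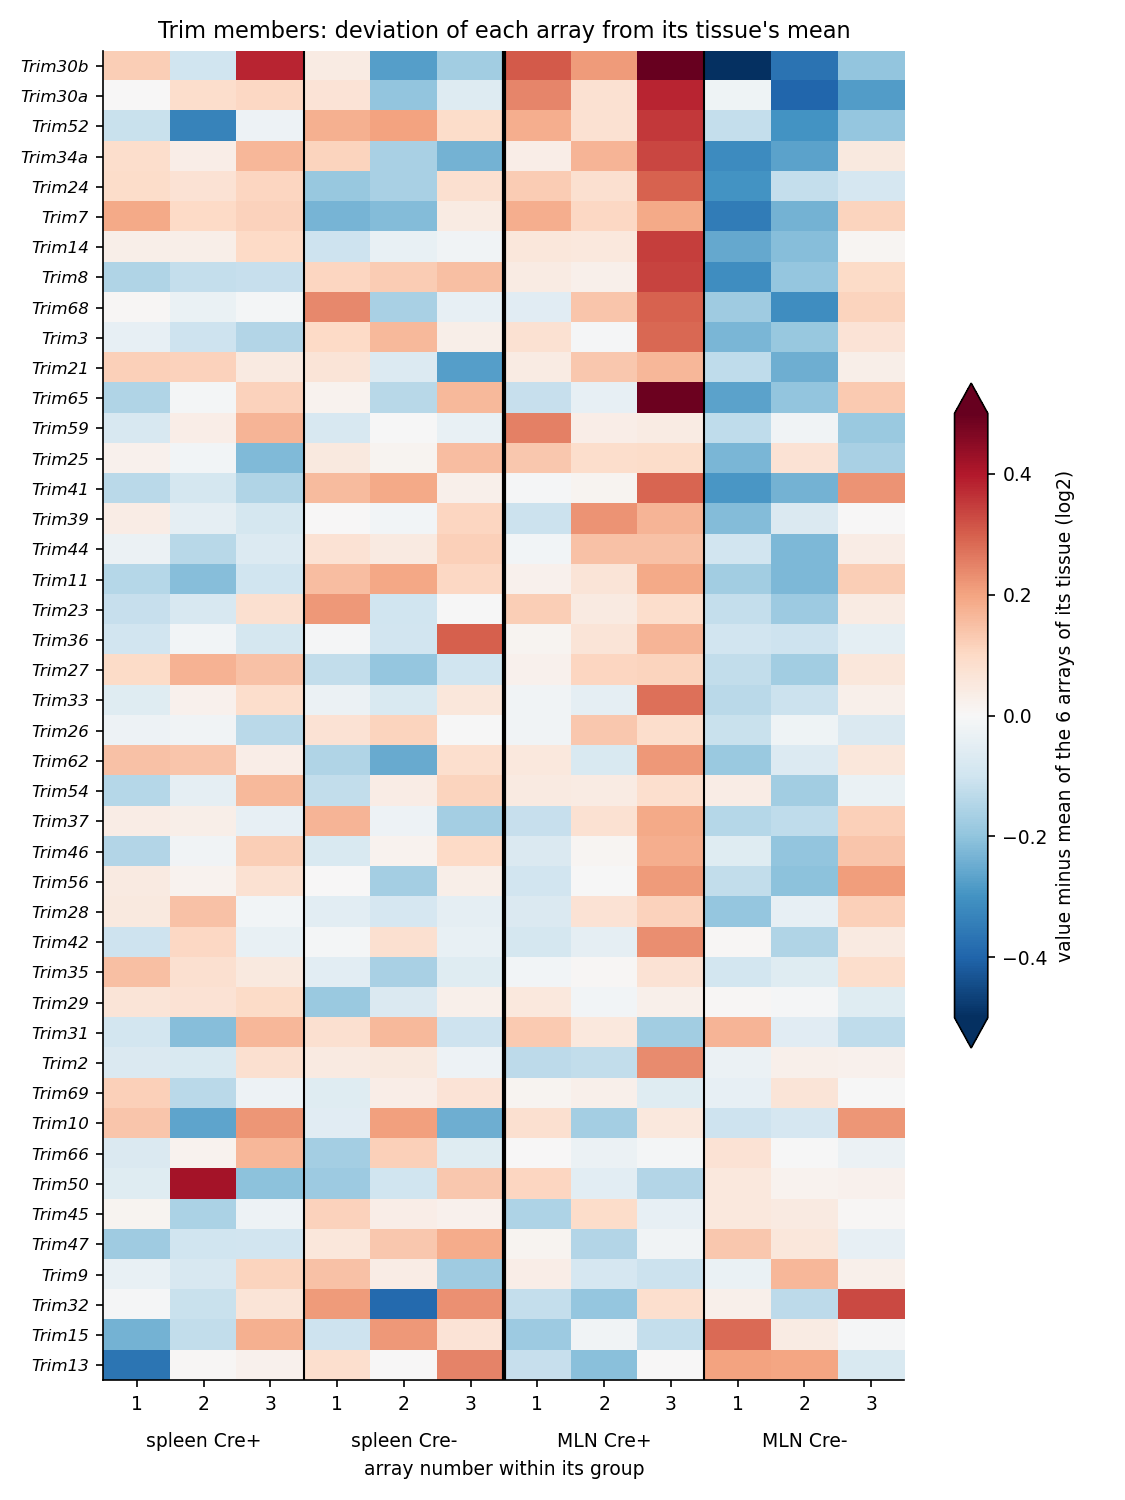
Deviation of each array from the mean of the 6 arrays of its tissue, in log2 units, for the 44 Trim members (rows, ordered by MLN genotype difference) and 12 arrays (columns, spleen Cre+, spleen Cre-, MLN Cre+ and MLN Cre-). Red is above and blue below the tissue mean, and colours end at 0.5 in either direction. The column of MLN Cre+ 3 is the reddest, in which 24 members have their highest MLN value, and that of MLN Cre- 1 holds the lowest value of 17.

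Family members that carry another name, and the genes around the family, were read for comparison. Of 4 measured family members named otherwise, 1 rose in spleen: Mid1, a microtubule-bound ligase, which averaged 9.35 in Cre+ and 8.91 in Cre- (difference 0.44, SE 0.0925, adjusted p = 0.04, limma). The spleen groups differ in Y-linked expression, and an effect of sex on Mid1 was not tested. In MLN the difference of Mid1 was 0.09 (adjusted p = 0.687, limma). Pml, the nuclear body protein, had 0.29 in spleen (adjusted p = 0.206) and 0.35 in MLN (adjusted p = 0.311). Mefv had -0.30 in spleen and 0.26 in MLN, and the dim Cmya5 had -0.13 in spleen and -0.02 in MLN, none of them called.

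Interferon-induced genes outside the family were called in spleen, where no Trim member was. Of 15 measured of 24 listed, 7 rose and 1 fell in spleen, with a median of 0.55, and 0 were called in MLN, with a median of 0.38. Oas2 and Oasl2, of the oligoadenylate synthetase family, rose in spleen by 1.55 (SE 0.245, adjusted p = 0.0139, limma) and 1.5 (SE 0.223, adjusted p = 0.0104). Rtp4 rose there by 1.05 (SE 0.158, adjusted p = 0.0108) and Ifit2 by 0.87 (SE 0.123, adjusted p = 0.00924), while Bst2, which is also a marker of plasmacytoid dendritic cells, fell by 0.65 (adjusted p = 0.027). In MLN the smallest p were those of Oasl2 with 0.91 (adjusted p = 0.214), Ifit2 with 0.50 (adjusted p = 0.216), Oasl1 with 0.53 (adjusted p = 0.226) and Irf9 with 0.38 (adjusted p = 0.237).

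Of 15 measured partners of the sensing members, of 19 listed, 1 rose in spleen and 0 were called in MLN. The RNA sensor gene Dhx58 rose in spleen by 0.57 (SE 0.121, adjusted p = 0.042, limma), while Ifih1 had 0.52 (adjusted p = 0.0648), Ddx58 0.43 (adjusted p = 0.0772) and the transcription factor gene Irf7 0.53 (adjusted p = 0.139). In MLN the differences were 0.41 for Dhx58, 0.30 for Ifih1, 0.31 for Ddx58, 0.67 for Irf7 and 0.24 for the Trim30a target Tab2, with adjusted p between 0.216 and 0.402. Dhx58 and Irf7 rose in the mean of both tissues, by 0.49 (adjusted p = 0.0269, limma) and 0.60 (adjusted p = 0.0407). That mean includes the spleen difference, in which genotype and sex cannot be told apart. Of the 9 measured of 11 listed partners of the TIF1 members, 0 were called in either tissue. Their smallest p belonged in MLN to Smad3 with 0.31 (adjusted p = 0.402), Setdb1 with 0.17, Smad2 with 0.14 and Skil with -0.14, and in spleen to Ski with -0.16, Skil with -0.14, Cbx5 with 0.15 and Smad4 with 0.08.

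Markers of other cells moved with genotype beside these values. In spleen 7 of 10 neutrophil genes rose, and their array means were 9.54 to 10.58 in Cre+ and 8.45 to 8.61 in Cre-. In MLN the neutrophil means were 6.101 to 6.398 in Cre+ and 5.77 to 5.88 in Cre-, with 0 of 10 called. In spleen 2 of 8 monocyte genes rose, Fcgr4 and Clec4e, all 8 differences were positive, and the array means were 9.63 to 10.01 in Cre+ and 9.22 to 9.37 in Cre-. There 4 of 14 macrophage genes fell, with array means of 10.21 to 10.28 in Cre+ and 10.55 to 10.90 in Cre-, and 3 of 7 plasmacytoid dendritic cell genes fell. In MLN the macrophage means were 7.37 to 7.61 in Cre+ and 6.75 to 7.17 in Cre-, with 1 of 14 called and no member of the list dim. The monocyte means were 7.60 to 7.81 in MLN Cre+ and 6.999 to 7.149 in MLN Cre-, with 1 of 8 called and 1 dim, and those of natural killer cells 7.83 to 7.88 and 6.92 to 7.48, with 0 of 7 called and 1 dim. B cell genes, at array means of 10.56 to 10.63 in MLN Cre+ and 10.42 to 10.59 in MLN Cre-, overlapped. Their spleen means were 11.48 to 11.68 in Cre+ and 11.27 to 11.65 in Cre-. T cell means, Cre+ before Cre-, were 9.10 to 10.18 and 9.53 to 9.80 in spleen, and 9.994 to 10.18 and 10 to 10.14 in MLN. Dendritic cell means in the same order were 11.84 to 11.98 and 11.89 to 11.97 in spleen, and 11 to 11.11 and 10.82 to 11.06 in MLN. The part of these cells in the Trim values was not tested, and in sorted bulk RNA fewer cells of a type and less RNA per cell cannot be told apart.

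Far more members were called between the tissues than between the genotypes, and these calls moved with scaling. As deposited, 33 of 44 members were called between MLN and spleen in Cre+ mice (8 higher and 25 lower in MLN, against 71.7% of all probe sets, 26.5% higher and 45.2% lower), and 36 in Cre- mice (8 higher and 28 lower, against 75.3%, 26.3% higher and 49.0% lower). With every array shifted to 1 median, 36 members were called in Cre+ mice and 38 in Cre- mice. The median over the members was -0.48 in Cre+ and -0.80 in Cre- as deposited. It was -0.26 and -0.50 after the median shift, and 0.04 and 0.02 after quantile normalization. The part of the array SD in this was not tested. The median over all probe sets was -0.24 in Cre+ and -0.36 in Cre- as deposited and 0.03 in both after quantile normalization. After that step 21 members were called in Cre+ mice, 14 higher and 7 lower (58.0% of all probe sets, 30.6% and 27.4%), and 22 in Cre- mice, 12 higher and 10 lower (64.1%, 34.4% and 29.7%). The members described first were called in the same direction on both scalings, which were 6 higher (18.2% of all probe sets) and 5 lower (23.4%) in Cre+ mice, and 6 higher (20.4%) and 9 lower (26.5%) in Cre- mice. The tissues also differed in sort and in Y-linked expression. As deposited, Eif2s3y averaged 3.17 in spleen and 7.60 in MLN in Cre+ mice, and 9.91 and 7.42 in Cre- mice. Tissue, sort and sex therefore cannot be told apart.

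Trim29, which lacks a RING and is known from epithelial cells and lung macrophages, was higher in MLN. It measured 6.69, 6.63 and 6.67 in MLN Cre+ and 5.34, 5.35 and 5.38 in spleen Cre+, and 6.65, 6.63 and 6.58 in MLN Cre- and 5.09, 5.21 and 5.31 in spleen Cre-. Its differences were 1.31 in Cre+ (1.19 after quantile normalization) and 1.42 in Cre- (1.36), with adjusted p of 1.31e-07 and 5.3e-08 as deposited (limma). Its means were below the dim limit in spleen and just above it in MLN. Trim15, Trim31, Trim9 and Trim54 were also called higher on both scalings in both genotypes. The dim Trim15 had 1.22 in Cre+ and 1.31 in Cre- as deposited, and 0.78 and 0.95 after quantile normalization. The dim Trim31, a ligase of Mavs, had 1.07 in Cre+ and 0.97 in Cre-, and 0.87 and 0.85 after it. The dim Trim9, known from neurons, had 0.63 in Cre+ and 0.73 in Cre-, and 0.33 and 0.49 after it. Trim54, known from muscle, had 0.44 in Cre+ and 0.31 in Cre-, and 0.59 and 0.54 after it. Its Cre- call was lost without spleen Cre- 1 or without MLN Cre- 1, with 0.24 and 0.26 (adjusted p = 0.0656 and 0.0625, limma). The dim Trim52 was called higher in both genotypes as deposited, by 1.19 in Cre+ and 0.47 in Cre-, and in Cre+ alone after quantile normalization, with 0.88 and 0.16. The dim Trim66 was called higher in both as deposited, by 0.36 in Cre+ and 0.46 in Cre-, and in Cre- alone after it, with 0.20 and 0.33. As deposited, dim probe sets as a whole had a median of 0.43 in Cre+ and 0.40 in Cre-, against -0.62 and -0.72 for those not dim, so dim members read against the dim probe sets, not against all.

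Trim30b was the member with the largest fall on the deposited scale in MLN against spleen. Its differences were -1.60 in Cre+ (SE 0.145, adjusted p = 2.64e-06, limma) and -2.04 in Cre- (adjusted p = 3.48e-07), and after quantile normalization they were -0.88 and -1.44. Trim44, which has a B-box and no RING, measured 8.49, 8.65 and 8.64 in MLN Cre+ and 9.99, 9.89 and 9.95 in spleen Cre+, and 8.41, 8.28 and 8.54 in MLN Cre- and 10.09, 10.07 and 10.14 in spleen Cre-. The tissues were far apart in both genotypes, by -1.35 and -1.69 as deposited and by -0.39 and -0.64 after quantile normalization. Trim37, a ligase of peroxisomes and centrioles, had -1.27 in Cre+ and -1.35 in Cre- as deposited, and -0.67 and -0.65 after quantile normalization. Trim23, which carries an ARF domain, had -1.02 in Cre+ and -1.28 in Cre- as deposited, and -0.42 and -0.57 after it. The dim Trim36, a microtubule-associated ligase, had -0.83 in Cre+ and -1.12 in Cre-. Trim36 was further apart after quantile normalization, at -1.09 and -1.36. In Cre- mice Trim25, Trim8, Trim26 and the dim Trim45 were also called lower on both scalings, the first 3 with -1.47, -1.41 and -1.23 as deposited and -0.42, -0.30 and -0.22 after quantile normalization. In Cre+ mice Trim25, Trim8 and Trim26 were called lower as deposited, with -1.11, -0.88 and -0.97, and were not called after quantile normalization, with -0.18, 0.12 and -0.10. The test of the difference between genotypes called none of the 3 (adjusted p = 0.344, 0.236 and 0.37, limma).

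**Figure D4:**
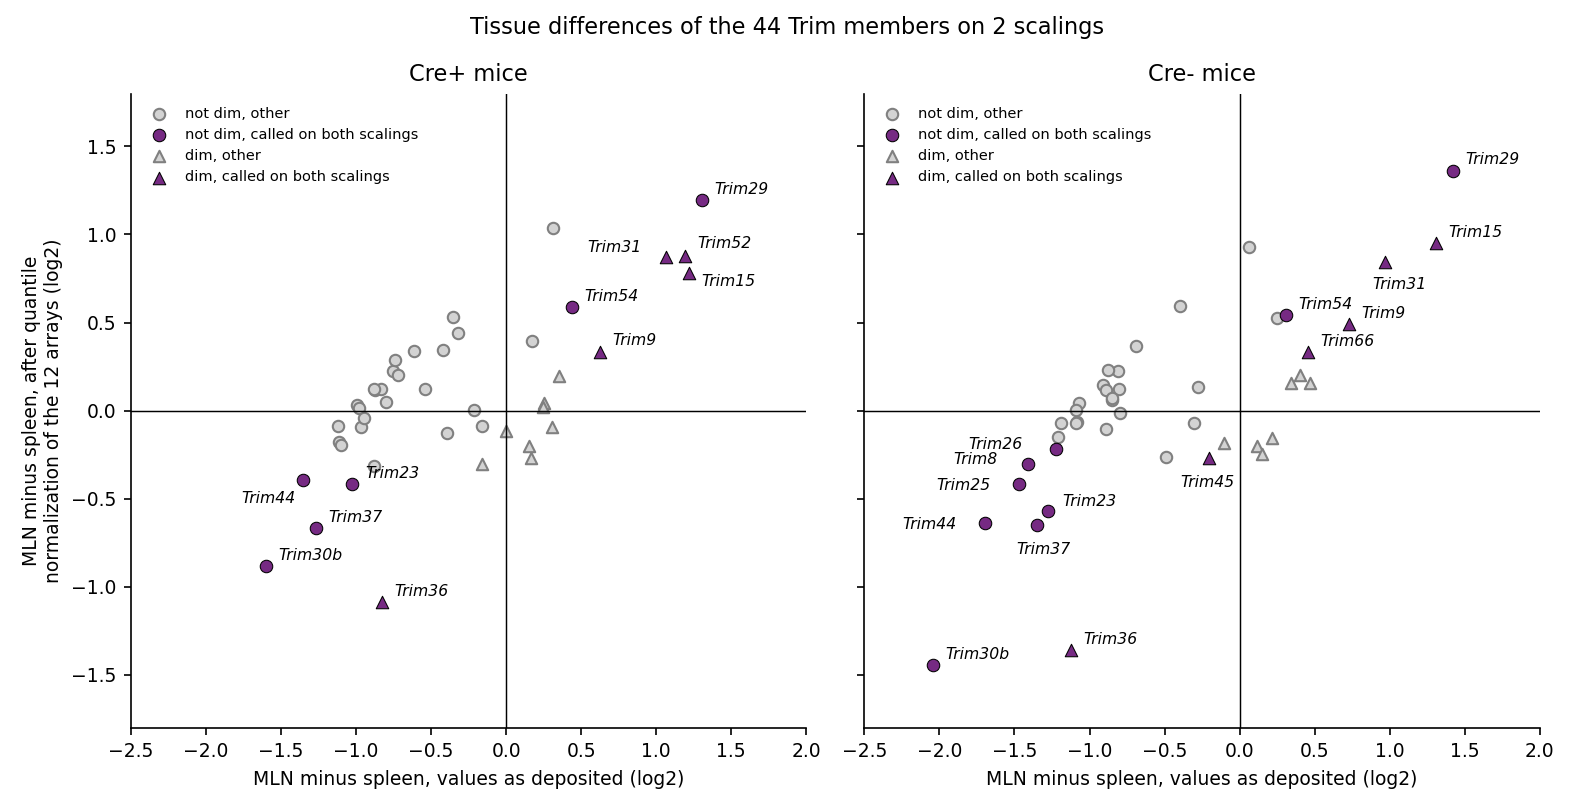
MLN minus spleen difference of the 44 Trim members in log2 units, as deposited (x axis) and after quantile normalization of the 12 arrays (y axis), in Cre+ mice (left) and Cre- mice (right). Triangles are dim members, and filled, named points were called in the same direction on both scalings. Trim29 lies at the upper right and Trim30b at the lower left in both genotypes, and most not dim members lie left of 0 as deposited and near 0 after quantile normalization.

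A tissue difference of Trim65 appeared on 1 scaling alone. As deposited it was 0.31 in Cre+ and 0.06 in Cre-, neither of them called, and after quantile normalization it was 1.04 and 0.93, both called in limma. Chosen after its values were seen, it shows how far the scaling moves a bright member whose deposited values were alike in the tissues.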

How the data were processed

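The deposited values are gene-level log2 expression values from robust multi-array averaging in GeneSpring, per the labels, and were used as deposited. No build, probe annotation or software version is given in the sources used here. Of 23332 probe sets, 14996 had 1 symbol in the platform annotation, 1019 several and 7317 none, and all 44 members matched a RefSeq gene table (GRCm38.p6). A model of 4 group means was fitted to 12 arrays in limma 3.58.1 (R 4.3.3) with eBayes, giving 8 residual and 2.66 prior degrees of freedom, and the number of arrays limits the precision. The labels do not say that spleen samples came from separate mice, so p-values measure the spread between arrays, which may be technical. Members, gene lists, tests and alternatives were chosen with earlier results of these data known.

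The text names members called in a genotype comparison, the 6 of largest difference among those not dim in each, the 4 TIF1 members, up to 8 in each direction between tissues that were called on both scalings, the 4 list genes of smallest p, and Tgfbr2. Trim2, Trim21, Trim32, Trim45, Trim56 and Trim65, the genotype values of Trim15, Trim26 and Trim52, and cell markers beyond this rule, were named after their values were seen. Steps were tested on simulated data. Alternatives were quantile normalization over all arrays or within tissue, a median shift, a filter on dim probe sets, 1-symbol probe sets alone, a trended and robust variance, array weights, the 6 arrays compared alone, a block for replicate number and leaving out each array.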

Additional observations from a re-analysis of the deposited data

How the results depend on the processing

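With array weights the number of called members became 4 in spleen (Trim11, Trim27, Trim47, Trim52), 4 in MLN (Trim30a, Trim30b, Trim34a, Trim7), 4 for the difference between tissues (Trim11, Trim44, Trim52, Trim8) and 9 for the mean of both, while all calls became 2747, 966, 1007 and 3044. Quantile normalization over all arrays called 1 member in MLN, Trim30b (difference 0.77, adjusted p = 0.0449, limma), and 21 members between the tissues in Cre+ mice and 22 in Cre- mice. Quantile normalization within each tissue called 2 in spleen (Trim11, Trim8) and 0 for the mean. Leaving out 1 array at a time gave 0 to 0 members in spleen, in MLN and for the difference between tissues, 0 to 3 for the mean (over all probe sets 141 to 519, 0 to 42, 5 to 55 and 62 to 692 for these 4 comparisons in turn), 32 to 34 between tissues in Cre+ and 33 to 37 in Cre-. For the mean, Trim30b was called in 1 of those 12 fits, that without MLN Cre- 3, together with Trim27 and Trim7. Directions reversed for Trim33 in spleen (-0.028 and -0.031 after quantile normalization over all arrays and within tissue, and -0.0041 to 0.0699 with 1 array left out, negative without spleen Cre+ 3) and in MLN (-0.017 and -0.015), for Trim28 in MLN (-0.078 by either quantile step, -0.0012 to 0.155 with 1 array left out) and for Trim66 in MLN (-0.047 to 0.0025), the sign turning without MLN Cre- 1 in both. The causes were not tested. Deviations of same-numbered arrays correlated at -0.0769, -0.00259 and -0.142 in spleen and 0.204, 0.00149 and 0.31 in MLN. Those of differently numbered arrays correlated at -0.0482 to 0.134 in spleen and -0.294 to 0.139 in MLN. In MLN the values of 0.204 and 0.31 lay above all of these, and whether same-numbered MLN samples were handled together was not tested. The main fit did not pair samples by number. With the replicate block 0 members were called for the mean (Trim30b adjusted p = 0.0603, limma, 162 of all probe sets). Counts over all probe sets also moved with the 6 arrays alone (18 in spleen, 0 in MLN), 1-symbol probe sets alone (32 in MLN, 68 for the difference between tissues, 498 for the mean), dim probe sets left out (39 in MLN, 74 for the difference between tissues, 572 for the mean), quantile normalization over all arrays (286 in spleen, 53 in MLN, 183 for the mean) or within tissue (6 in MLN), and the replicate block (281 in spleen, 0 in MLN, 0 for the difference between tissues). The call of Trim54 between tissues in Cre- mice was lost without spleen Cre- 1 (0.24) or MLN Cre- 1 (0.26). The fit to 6 arrays alone could not be made for the mean or the difference between tissues. Exact permutation of 3 arrays against 3 cannot give a two-sided p under 0.1.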
